A study of Caenorhabditis elegans with 6 samples.

Results

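Nuclear pore, nuclear import and nuclear lamina genes were examined in dissected gonads of *set-2(bn129)* and wildtype worms of the N2 strain. The genes were taken by their WormBase symbols, as every symbol that begins with npp-, ima-, imb- or ran- followed by a digit, together with *lmn-1*, *emr-1*, *lem-2* and *baf-1*. This gave 41 genes of the 46772 in the count tables: 26 nucleoporins, 11 import and Ran cycle genes and 4 lamina genes. The nucleoporin gene *rae-1* and the export receptor genes *xpo-1*, *xpo-2* and *xpo-3* carry other symbols and were not among the 41. RNA was sequenced from 3 libraries of *set-2(bn129)* and 3 libraries of wildtype, and p-values measure the spread between these libraries, which may be technical. The mutant animals were *set-2/set-2* homozygotes for the loss-of-function allele bn129, whose mothers were heterozygous, and *set-2* encodes the worm SET1 methyltransferase of the COMPASS complex. Each sample pooled gonads of several young adults, taken from the part distal to the bend of the gonad arm. The paper describes the dissection without setting the genotypes apart.

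Nuclear pores are channels through the nuclear envelope, each built from many copies of a set of nucleoporins. An outer ring, formed by the Y complex, and an inner ring make up the scaffold, and nucleoporins with phenylalanine-glycine repeats line the central channel. Importins carry proteins inward and release them on binding Ran-GTP, which is kept high in the nucleus by the exchange factor RAN-3 and low in the cytoplasm by the GTPase activator RAN-2. Beneath the inner membrane lies the lamina, made in worms of the single lamin LMN-1 with the LEM-domain proteins EMR-1 and LEM-2 and the chromatin-binding protein BAF-1. Germ nuclei hold many pores, and P granules sit on their cytoplasmic side.

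Differences between genotypes were small in most of these genes. Those past the threshold given below went in both directions, at a share near that of all genes tested. In *set-2* gonads, the importin alpha gene *ima-2*, the Ran genes *ran-3* and *ran-5* and the nucleoporin genes *npp-1*, *npp-2*, *npp-6*, *npp-19* and *npp-23* were higher. The emerin gene *emr-1*, the importin genes *ima-3* and *imb-1* and the nucleoporin genes *npp-7*, *npp-8*, *npp-25* and *npp-26* were lower. The rises lay between 0.11 and 0.26 on the log2 scale and the falls between -0.15 and -0.93. All 41 genes passed the filter on low counts. The comparison was fitted in edgeR across all 9431 genes tested (quasi-likelihood F test, n = 3 libraries per genotype), p was adjusted over these by Benjamini and Hochberg's method, and a gene passed at an adjusted p of at most 0.05. By this rule 8 genes were higher and 7 were lower, 15 of 41 (36.6%), against a background of 41.4% of all genes tested. In single directions the background was 20.3% higher and 21.1% lower. The unadjusted p was at most 0.05 for 20 of the 41 and for 4710 of the 9431 genes tested. With the added fold limit of 0.58 on the log2 scale (1.5-fold, the limit used in the study), 0 genes were higher and 3 genes were lower, *emr-1*, *npp-25* and *npp-26*, beside 6.99% and 8.36% of all genes tested (15.3% in either direction). The median log2 fold change was 0.03 over the 41 genes and -0.00090 over all genes tested, and 27 of the 41 values were above 0. Without wildtype replicate 2, 4 genes were higher and 5 were lower.

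**Figure D1:**
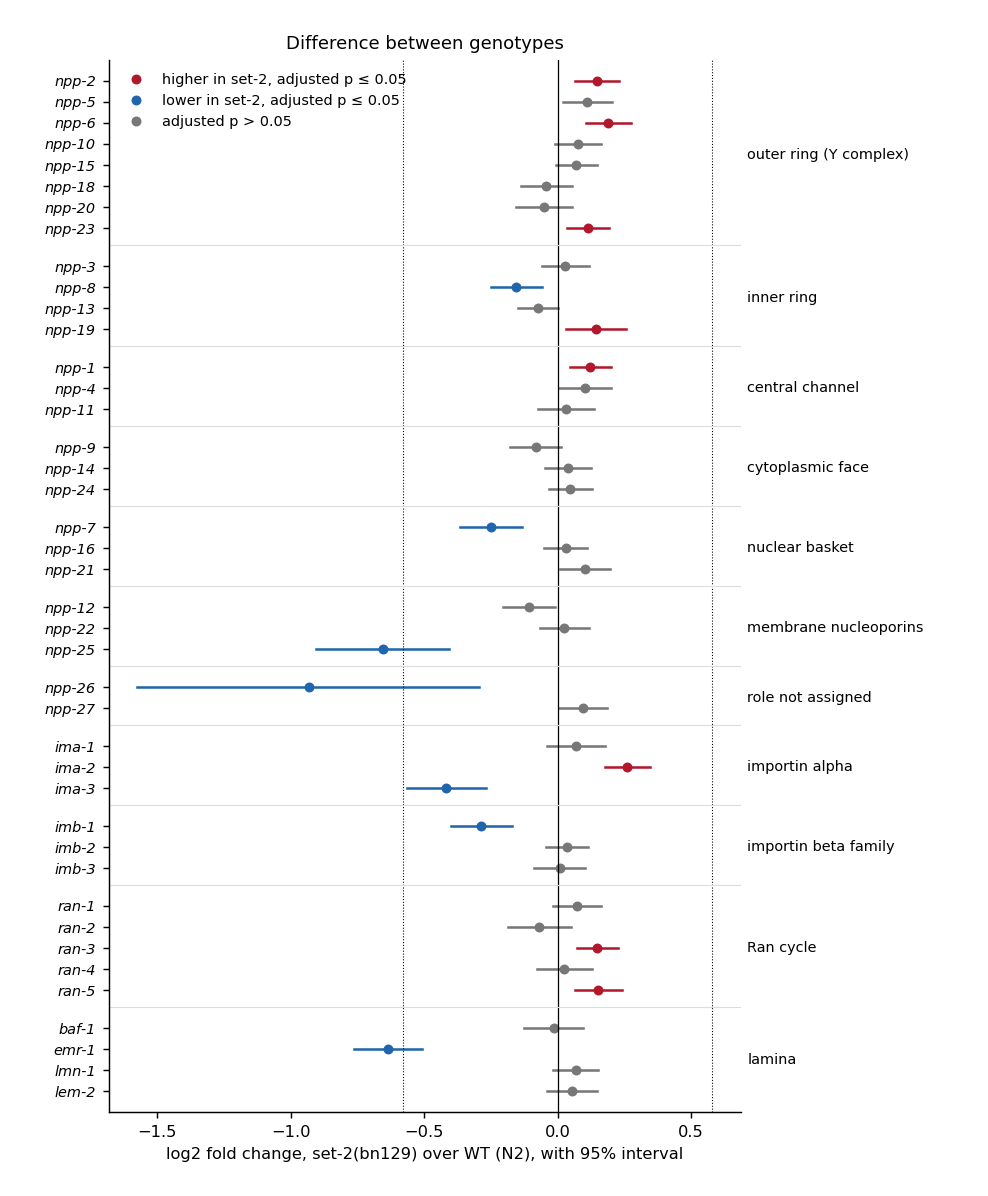
The log2 fold change of *set-2(bn129)* over wildtype (x axis) is drawn for each of the 41 genes (y axis, grouped by place in the pore or pathway), with the 95% interval of the fit as a bar and dotted lines at the fold limit of 0.58. Red genes (8) were higher in *set-2* gonads and blue genes (7) were lower past an adjusted p of 0.05, and the intervals of 38 genes lie wholly inside the dotted lines.

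Total counts were between 23403396 and 30724547 in *set-2* libraries and between 24814518 and 25231478 in wildtype libraries. The 41 genes held 1.20% to 1.26% of the counts in *set-2* libraries and 1.10% to 1.12% in wildtype libraries, ribosomal RNA included, but their summed scaled level overlapped, with 11680 to 11947 CPM in *set-2* libraries and 11430 to 11723 CPM in wildtype libraries. Of all counts, ribosomal RNA genes held 8.06% to 10.6% in *set-2* libraries and 13.6% to 14.9% in wildtype libraries. The *set-2* transcript itself, on chromosome III from 4922427 to 4930204 in the WBcel235 annotation, had 87.3, 94.1 and 99.2 CPM in mutant libraries and 149, 161 and 151 CPM in wildtype libraries (log2 fold change -0.71). CPM stands here for counts per 1000000 after TMM scaling between libraries. All 22 germline markers on the lists were tested (2 higher and 8 lower in *set-2* gonads), all 14 oocyte markers (1 higher and 4 lower), 3 of 22 sperm markers (1 higher and 1 lower) and 6 of 10 somatic gonad markers (1 lower). Of 17 muscle markers tested 16 were lower in *set-2* gonads, and their summed level was 271 to 314 CPM in *set-2* libraries and 354 to 629 CPM in wildtype libraries. Of 13 intestine markers tested (17 listed) 12 were lower, with sums of 91.5 to 191 CPM in *set-2* libraries and 263 to 678 CPM in wildtype libraries. No muscle or intestine marker on the lists was at 0 in every library. In bulk samples of this kind, fewer cells of a type and less RNA per cell cannot be told apart.

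Levels per exon length were compared as TPM, which here leaves out ribosomal RNA genes and is scaled within each library. The order of genes was therefore read within a genotype, and differences between genotypes were taken from the fit. In *set-2* gonads, as in wildtype gonads, *ran-1*, which encodes the Ran GTPase, was the most abundant transcript of the 41, at 1024 ± 3.14 TPM in *set-2* and 937 ± 13.2 TPM in wildtype (SD, n = 3 each). It was followed in both by *ima-2*, with 616 ± 25.4 TPM in *set-2* and 494 ± 7.22 TPM in wildtype, and by *imb-3*, with 415 ± 16.4 TPM in *set-2* and 397 ± 12.1 TPM in wildtype. The median wildtype level of the 41 genes was 106 TPM and that of all genes tested was 25.5 TPM. Most nucleoporins lay close together, 24 of the 26 between 44.0 and 255 TPM in wildtype. Several neighbours in the order did not differ beyond their spread, such as *lmn-1*, *baf-1* and *ran-3* with 214 ± 0.482, 218 ± 9.50 and 218 ± 4.41 TPM in wildtype. The remaining 2 nucleoporins stood apart. *npp-25* reached 8.60 ± 0.818 TPM in *set-2* and 13.02 ± 1.87 TPM in wildtype, and *npp-26* reached 0.572 ± 0.145 TPM in *set-2* and 1.07 ± 0.222 TPM in wildtype.

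**Figure D2:**
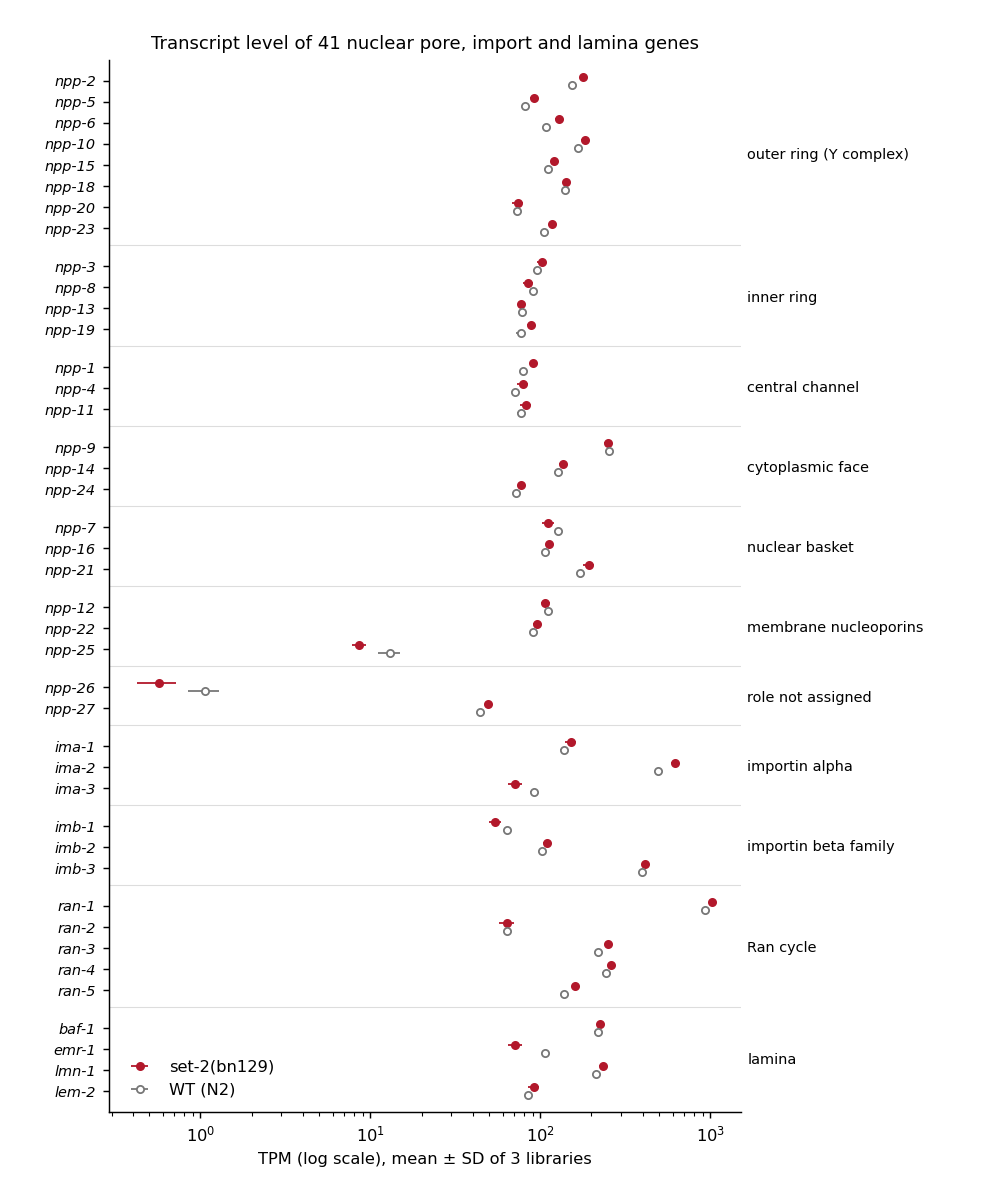
Points give the mean TPM of 3 libraries on a log scale (x axis), with the SD as a bar, for each of the 41 genes (y axis, grouped by place), filled for *set-2(bn129)* and open for wildtype. Nearly all genes lie between 44.0 and 1024 TPM, *ran-1* is highest in both genotypes, and *npp-25* and *npp-26* lie far below the rest.

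Of the 8 outer ring genes, which encode the Y complex, 3 were higher in *set-2* gonads and none was lower, and 6 of the 8 had every *set-2* library above every wildtype library. Over all genes tested, 20.3% were higher, 21.1% were lower and 26.8% had every *set-2* library above. *npp-6*, the worm NUP160, showed the largest rise of the ring. It had 453, 468 and 451 CPM in *set-2* libraries and 391, 399 and 412 CPM in wildtype libraries, a rise of 0.19 on the log2 scale (edgeR adjusted p = 0.0024), with a standard error (SE) of 0.038 in the fit. All 3 mutant libraries lay above the wildtype libraries, and the gene (chromosome I, 5176829 to 5182801) shares exon positions with *slx-1* on the same strand. *npp-2*, encoding NUP85, had 257, 250 and 245 CPM in *set-2* libraries and 225, 221 and 233 CPM in wildtype libraries. It rose by 0.15 (edgeR adjusted p = 0.0093, SE 0.038), and without wildtype replicate 2 its adjusted p was 0.0502 (0.00099 to 0.0502 over 13 alternatives). *npp-23*, encoding NUP43, had 110, 108 and 107 CPM in *set-2* libraries and 101, 99.9 and 98.5 CPM in wildtype libraries. The groups did not overlap, and the rise of 0.11 had an edgeR adjusted p of 0.023. Without wildtype replicate 2 or 3 or *set-2* replicate 1 it did not pass (0.072, 0.070 and 0.062), nor with DESeq2's Wald test (0.063), with a range of 0.013 to 0.072 over 13 alternatives.

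The other outer ring genes did not pass. *npp-5*, the worm NUP107, missed the threshold narrowly with 186, 177 and 169 CPM in *set-2* libraries and 162, 169 and 162 CPM in wildtype libraries (log2 fold change 0.11, edgeR adjusted p = 0.0505), and it passed in 4 of 13 alternatives, which were no low count filter, upper quartile scaling, a minimum of 10 counts in every library and leaving out *set-2* replicate 3 (0.015, 0.028, 0.0497 and 0.025, 0.015 to 0.15 over all 13). *npp-10*, whose product is cut into NUP98 and NUP96, averaged 755 ± 16.96 CPM in *set-2* and 716 ± 8.16 CPM in wildtype (SD, n = 3 each). *npp-15*, encoding NUP133, averaged 324 ± 1.68 CPM in *set-2* and 309 ± 5.52 CPM in wildtype (SD, n = 3 each). For both, all *set-2* libraries were above all wildtype libraries, with log2 fold changes of 0.08 and 0.07 and edgeR adjusted p of 0.13 each. In *npp-18* and *npp-20*, encoding SEH1 and SEC13, the libraries of the genotypes overlapped, and the intervals of the difference reached from -0.14 to 0.05 and from -0.16 to 0.06. Summed over the 8 genes, the ring had 2248 to 2292 CPM in *set-2* libraries and 2099 to 2149 CPM in wildtype libraries, without overlap.

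The 4 inner ring genes were split. *npp-8*, encoding NUP155, was lower in *set-2* gonads with 276, 298 and 289.5 CPM, against 317, 334 and 310.2 CPM in wildtype libraries. It fell by 0.15 on the log2 scale (edgeR adjusted p = 0.014, SE 0.043). The call was lost without wildtype replicate 2 and without *set-2* replicate 1 (0.070 and 0.053, 0.0072 to 0.070 over 13 alternatives). *npp-19*, the worm NUP35, was higher, with 95.4, 90.9 and 86.6 CPM in *set-2* libraries and 78.3, 80.8 and 87.5 CPM in wildtype libraries. Its groups overlapped, since wildtype replicate 3 lay above *set-2* replicate 3. The rise of 0.15 (edgeR adjusted p = 0.040, SE 0.051) was lost in 6 of 13 alternatives, among them leaving out replicate 1 or 2 of either genotype (0.12, 0.13, 0.13 and 0.084, 0.0044 to 0.13 over the alternatives). *npp-13*, the worm NUP93, averaged 187 ± 1.11 CPM in *set-2* and 196 ± 4.28 CPM in wildtype, and *npp-3*, the worm NUP205, 412 ± 13.6 CPM in *set-2* and 403 ± 11.8 CPM in wildtype (SD, n = 3 each). Neither passed (edgeR adjusted p = 0.11 and 0.59).

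Of the 3 central channel genes, whose products carry phenylalanine-glycine repeats, *npp-1* was higher in *set-2* gonads. It encodes NUP54 and had 201, 194 and 199 CPM in *set-2* libraries and 184, 179 and 183 CPM in wildtype libraries. The groups did not overlap, and the rise was 0.12 on the log2 scale (edgeR adjusted p = 0.016, SE 0.035), with an adjusted p of 0.072 without wildtype replicate 2 (0.0067 to 0.072 over 13 alternatives). *npp-4*, encoding NUP58, differed by 0.10 (edgeR adjusted p = 0.081), with every *set-2* library above, though *set-2* replicate 1 (101.93 CPM) and wildtype replicate 2 (101.91 CPM) all but met. For *npp-11*, the worm NUP62, the libraries overlapped and the 95% interval of the difference reached from -0.08 to 0.13.

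On the cytoplasmic face, none of *npp-9*, *npp-14* and *npp-24* passed. *npp-9* encodes NUP358, which binds Ran at the pore, and was the most abundant nucleoporin transcript per length. It had 539, 577 and 578.6 CPM in *set-2* libraries and 598, 616 and 579.7 CPM in wildtype libraries (edgeR adjusted p = 0.15). All mutant libraries were below the wildtype libraries, but replicate 3 of the genotypes lay almost level. The 95% intervals of the 3 genes together reached from -0.18 to 0.13.

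In the nuclear basket, *npp-7* was lower in *set-2* gonads. It encodes NUP153, which anchors the basket, and had 340, 379 and 384 CPM in *set-2* libraries and 427, 461 and 424 CPM in wildtype libraries. The groups did not overlap, and it fell by 0.25 on the log2 scale (edgeR adjusted p = 0.0031, SE 0.053). The call held in all 13 alternatives set out for the fit. *npp-21*, encoding the filament protein TPR, had its *set-2* values on the other side. It had 839.7, 908 and 867 CPM in *set-2* libraries and 801, 822 and 810.2 CPM in wildtype libraries, again without overlap, but did not pass (log2 fold change 0.10, edgeR adjusted p = 0.070). It passed in 4 of 13 alternatives, which were no low count filter, upper quartile scaling, DESeq2's Wald test and leaving out *set-2* replicate 1 (0.020, 0.046, 0.028 and 0.036, 0.020 to 0.16 over all 13). *npp-16*, encoding NUP50, averaged 136 ± 1.71 CPM in *set-2* and 133 ± 3.91 CPM in wildtype (SD, n = 3 each) with overlapping libraries.

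Among the nucleoporins that sit in the membrane, *npp-25* was lower in *set-2* gonads. It is the worm relative of TMEM33 and lies on chromosome III from 12920266 to 12925997. It had 12.1, 13.6 and 14.4 CPM in *set-2* libraries and 22.6, 22.9 and 17.5 CPM in wildtype libraries, with wildtype replicate 3 the nearest to the mutant. It fell by 36.5% (log2 fold change -0.65, edgeR adjusted p = 0.00098, SE 0.11), and the call held in all 13 alternatives. *npp-12*, the worm gp210 and by far the more abundant gene, had 449, 482 and 478 CPM in *set-2* libraries and 508, 523 and 484 CPM in wildtype libraries (log2 fold change -0.11, edgeR adjusted p = 0.074). Without wildtype replicate 3 its adjusted p was 0.045 (0.045 to 0.24 over 13 alternatives). *npp-22*, the worm NDC1, averaged 139 ± 5.19 CPM in *set-2* and 136 ± 4.78 CPM in wildtype (SD, n = 3 each).

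Of the 2 nucleoporin symbols not placed in the pore here, *npp-26* was lower in *set-2* gonads and close to the floor of the data. It had 17, 13 and 28 counts in *set-2* libraries and 28, 39 and 29 counts in wildtype libraries, which is 0.641, 0.526 and 0.900 CPM in *set-2* libraries and 1.15, 1.66 and 1.20 CPM in wildtype libraries. It fell by 0.93 on the log2 scale with a wide interval from -1.58 to -0.29 (edgeR adjusted p = 0.024). The call was lost without wildtype replicate 2, *set-2* replicate 1 or *set-2* replicate 2 (0.11, 0.077 and 0.089) and with DESeq2's Wald test (0.084), with a range of 0.017 to 0.11 over 13 alternatives. *npp-27* had 59.3, 57.7 and 59.4 CPM in *set-2* libraries and 55.1, 55.3 and 54.6 CPM in wildtype libraries, with no overlap, and did not pass (log2 fold change 0.10, edgeR adjusted p = 0.081).

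The 3 importin alpha genes, whose products bind nuclear localization signals, were split between a rise, a fall and a gene that did not pass. *ima-2*, needed in the worm germline and early embryo, was higher with 838, 826 and 805 CPM in *set-2* libraries, against 684, 681 and 696 CPM in wildtype libraries. This is a rise of 19.8% (log2 fold change 0.26, edgeR adjusted p = 0.00037, SE 0.039), the largest rise among the 41 genes, on chromosome I from 6315233 to 6317262. *ima-3*, which acts in worm meiosis, was lower with 127, 134 and 154 CPM in *set-2* libraries, against 181, 197 and 176 CPM in wildtype libraries. It fell by 25.1% (log2 fold change -0.42, edgeR adjusted p = 0.00062, SE 0.067), and its exons on chromosome IV (7558726 to 7561664) overlap those of *nprl-2* on the opposite strand, which had a log2 fold change of -0.16 itself (edgeR adjusted p = 0.0076). Neither *ima-2* nor *ima-3* had overlapping groups, and both calls held in all 13 alternatives. *ima-1* averaged 215 ± 11.9 CPM in *set-2* and 205 ± 9.76 CPM in wildtype (SD, n = 3 each) and overlapped (edgeR adjusted p = 0.28). As shares of the summed importin alpha TPM, *ima-2* made up 73.9%, 73.5% and 73.2% in *set-2* libraries and 68.7%, 67.9% and 68.3% in wildtype libraries. The share of *ima-3* was 7.70%, 8.25% and 9.67% in *set-2* libraries and 12.5%, 13.6% and 11.9% in wildtype libraries. Both shares were without overlap, as was the total of the 3 genes, at 1161 to 1189 CPM in *set-2* and 1064 to 1088 CPM in wildtype.

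**Figure D3:**
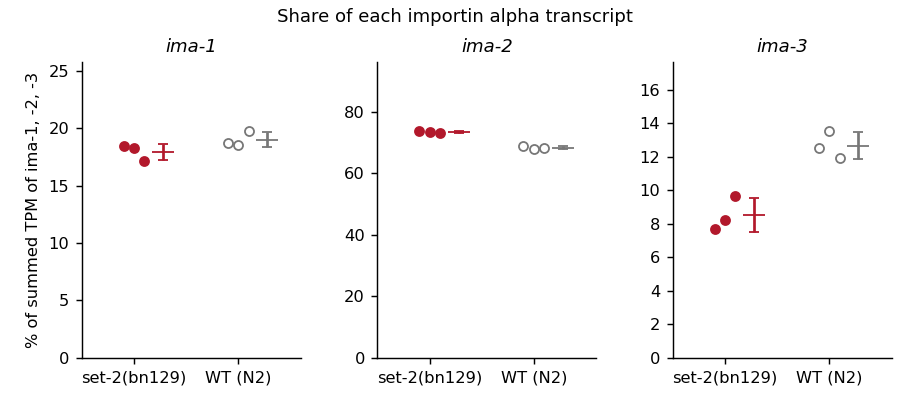
Each panel gives the percentage of the summed TPM of *ima-1*, *ima-2* and *ima-3* that 1 gene made up (y axis, from 0, a scale of its own in each panel) in 3 *set-2(bn129)* libraries (filled) and 3 wildtype libraries (open), with the mean and SD beside the points. The *ima-2* share is 73.2% to 73.9% in *set-2* and 67.9% to 68.7% in wildtype, and the *ima-3* share is 7.70% to 9.67% in *set-2* and 11.9% to 13.6% in wildtype.

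Of the importin beta family, *imb-1* was lower in *set-2* gonads. It encodes importin beta, the carrier that works with importin alpha, and had 129.9, 142 and 153 CPM in *set-2* libraries and 172, 176 and 169.98 CPM in wildtype libraries. The groups did not overlap, and it fell by 17.99% (log2 fold change -0.29, edgeR adjusted p = 0.0013, SE 0.052) in a call that held in all 13 alternatives. The gene lies on chromosome I from 4920683 to 4926486 and shares exon positions with *F21F3.7* on the opposite strand. *imb-2*, encoding a transportin, averaged 263 ± 5.53 CPM in *set-2* and 257 ± 5.32 CPM in wildtype, and *imb-3*, encoding an importin of the importin 5 type, 1140.4 ± 27.3 CPM in *set-2* and 1134 ± 36.7 CPM in wildtype (SD, n = 3 each). Both overlapped, and their intervals reached from -0.05 to 0.11 and from -0.09 to 0.10.

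Within the Ran cycle, *ran-3* and *ran-5* were higher in *set-2* gonads. *ran-3*, encoding the chromatin-bound exchange factor RCC1, had 402, 403 and 401 CPM in *set-2* libraries and 355, 365 and 368 CPM in wildtype libraries, a rise of 0.15 on the log2 scale (edgeR adjusted p = 0.0062, SE 0.035). *ran-5*, which encodes a Ran-binding protein, had 156, 144 and 156 CPM in *set-2* libraries and 137, 135 and 138 CPM in wildtype libraries, also a rise of 0.15 (edgeR adjusted p = 0.011, SE 0.041). The groups did not overlap for either gene, and both calls held in all 13 alternatives. *ran-1* itself had 741, 699 and 743 CPM in *set-2* libraries and 689, 687 and 701 CPM in wildtype libraries, with an overlap between *set-2* replicate 2 and wildtype replicate 3 (log2 fold change 0.07, edgeR adjusted p = 0.18). *ran-2*, encoding the GTPase activator, averaged 159 ± 13.2 CPM in *set-2* and 167 ± 2.81 CPM in wildtype (SD, n = 3 each). *ran-4*, the worm NTF2, which carries Ran back into the nucleus, averaged 122 ± 4.98 CPM in *set-2* and 119.9 ± 6.40 CPM in wildtype (SD, n = 3 each). Both overlapped between genotypes.

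Of the 4 lamina genes only *emr-1* passed. It encodes emerin, a LEM-domain protein of the inner nuclear membrane, and had 36.2, 36.2 and 31.7 CPM in *set-2* libraries and 54.5, 53.3 and 53.6 CPM in wildtype libraries. The groups were far apart beside their spread, and *emr-1* fell by 35.6% (log2 fold change -0.63, edgeR adjusted p = 1.7e-05, SE 0.059), the smallest adjusted p among the 41 genes. The call held in all 13 alternatives, in which its log2 fold change lay between -0.67 and -0.57. *emr-1* lies on chromosome I from 1842445 to 1843227, and its exons overlap those of no other gene in the annotation. LEM-2, which shares functions with EMR-1 in worms, is encoded by *lem-2*, with 153, 163 and 151 CPM in *set-2* libraries and 149.7, 155 and 144 CPM in wildtype libraries, which overlap (edgeR adjusted p = 0.33). *lmn-1*, the lamin gene, had 386, 375 and 360 CPM in *set-2* libraries and 356.5, 356.9 and 356.3 CPM in wildtype libraries. All mutant libraries were above the wildtype ones, but *lmn-1* did not pass (log2 fold change 0.07, edgeR adjusted p = 0.18). *baf-1* averaged 89.6 ± 5.55 CPM in *set-2* and 90.5 ± 3.72 CPM in wildtype (SD, n = 3 each) with overlapping libraries.

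The 15 genes that passed were also compared library by library. The fall of *emr-1* stood beside lower muscle and intestine markers in the mutant. Between the *set-2* libraries the summed muscle markers varied 1.16-fold and the intestine markers 2.09-fold, and between the wildtype libraries 1.78-fold and 2.58-fold. *emr-1* varied 1.14-fold between *set-2* libraries and 1.02-fold between wildtype libraries, *imb-1* 1.17-fold in *set-2* and 1.03-fold in wildtype, and *ima-3* 1.22-fold in *set-2* and 1.12-fold in wildtype. In the *set-2* libraries *imb-1*, *ima-3*, *npp-7* and *npp-25* had the same order as the muscle markers, lowest in replicate 1 and highest in replicate 3. In the wildtype libraries the muscle markers again had this order. There *imb-1*, *ima-3*, *npp-7* and *npp-25* were highest in replicate 2 and lowest in replicate 3. The summed germline markers had the order of these genes in both genotypes. Their sums were 5821, 5974 and 6683 CPM in *set-2* libraries and 7057, 7286 and 6729 CPM in wildtype libraries. The summed intestine markers were lowest in *set-2* replicate 3, as was *emr-1*. In wildtype the intestine markers were lowest in replicate 1 and *emr-1* in replicate 2. With the level of muscle and intestine markers as a covariate, an alternative chosen after the data were seen, 4 of the 15 passed, *ima-2* and *npp-6* higher and *emr-1* and *npp-25* lower. Among those that did not, *ima-3* had a log2 fold change of -0.44 and *imb-1* of -0.31, beside -0.42 and -0.29 without the covariate. The values of the others that did not pass are not given here. Over all genes, 404 were higher and 661 lower with the covariate, and 1915 and 1993 without it. That covariate differs between genotypes, so marker level and genotype cannot be told apart in this fit. The cause of the falls was not tested. Among the mutant libraries, *set-2* replicate 1 was the highest for 6 of the 8 genes that were higher and the lowest for 5 of the 7 that were lower. Over all genes past the adjusted p it was the highest of the 3 for 35.5% of those higher and the lowest for 42.2% of those lower. *set-2* replicate 3 lay at the other end, lowest for 6 of the 8 and highest for 5 of the 7, beside 34.9% and 40.9% over all such genes. Among the wildtype libraries, replicate 2 was the highest for 6 of the 7 lower genes (41.1% over all such genes), and replicate 3 was the highest for 6 of the 8 higher genes (40.5%) and the lowest for 5 of the 7 lower ones (42.5%). Replicate 1 had the smallest share of ribosomal RNA counts of the mutant libraries (8.06%) and replicate 3 the largest (10.6%), and the part of this in the result was not tested.

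**Figure D4:**
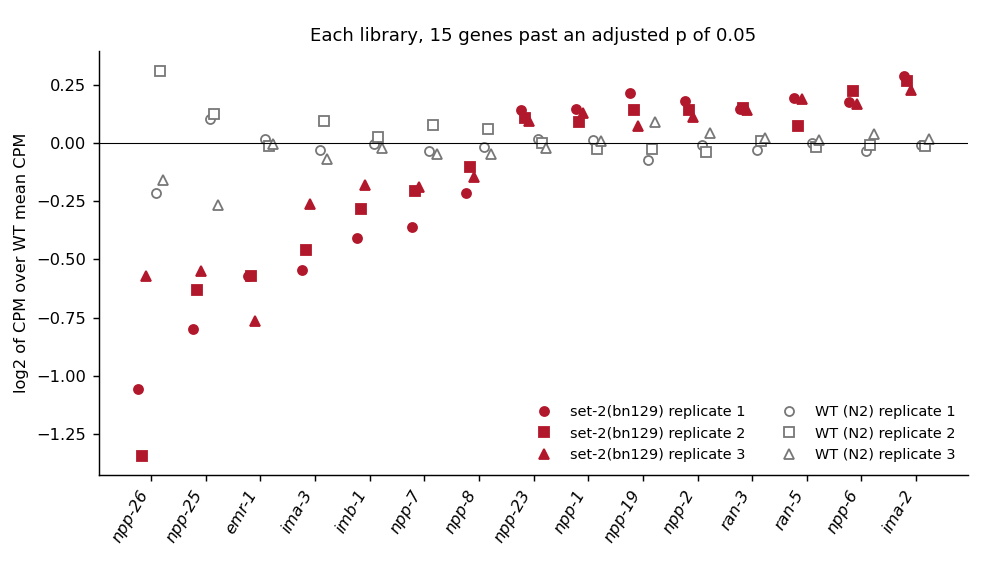
For the 15 genes past an adjusted p of 0.05 (x axis, from the largest fall to the largest rise), each symbol is 1 library, given as the log2 of its CPM over the wildtype mean CPM (y axis), with filled symbols for *set-2(bn129)* and open symbols for wildtype. Filled and open symbols do not overlap except in *npp-19*, and *npp-26* and *npp-25* have the widest scatter.

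The 41 genes shared features that their symbols did not fix. In the 5 equal classes of mean expression among genes tested, 32 lay in the highest class, 6 in the class below it and 3 in the lower classes, which were *emr-1*, *npp-25* and *npp-26*. These 3 were also the genes past the fold limit. Of the 32 in the highest class 6 were higher and 4 were lower past the adjusted p. Of all genes in that class 48.5% passed (24.7% higher and 23.9% lower), and 1.96% passed with the fold limit as well. By chromosome, 14 of the genes lay on I, 9 on II, 9 on III, 7 on IV, 2 on V and 0 on X. This put 34.1% of them on I, where 19.6% of all genes tested lay, and 4.88% on V, where 16.01% lay, and 11.9% of all genes tested were on X. Without regard to thresholds, 14 genes had every *set-2* library above and 10 every *set-2* library below the wildtype libraries. These 24 genes are 58.5% of the 41, and over all genes tested the share without overlap was 52.9% (26.8% above and 26% below). Exons of 14 of the 41 overlapped those of another gene, and the share over all genes tested was not computed.

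**Figure D5:**
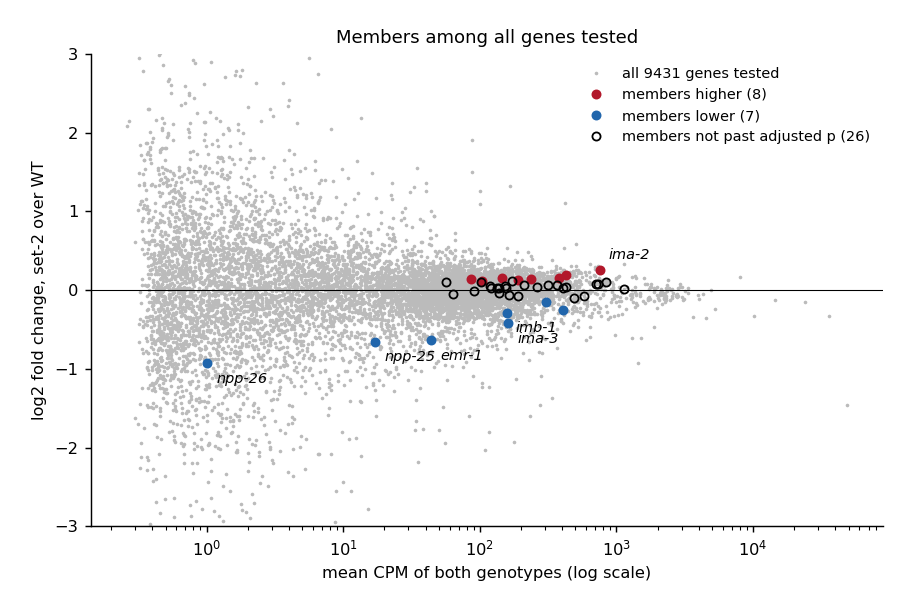
Each grey point is 1 of the 9431 genes tested, by its mean CPM over both genotypes on a log scale (x axis) and its log2 fold change of *set-2* over wildtype (y axis, cut at 3 in either direction, which leaves out 38 genes). The 41 genes are drawn over them, red for the 8 that were higher, blue for the 7 that were lower and open for the 26 that did not pass, and most lie at high expression, where the grey cloud is narrow.

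Other genes of nuclear transport and of the nuclear envelope were taken from 2 lists. In the transport list all 16 genes were tested, 4 were higher and 2 were lower in *set-2* gonads (37.5%, against the 41.4% over all genes tested), with a median log2 fold change of 0.07. *xpo-1*, encoding the main export receptor, had 432, 459 and 472 CPM in *set-2* libraries and 589.5, 603 and 581 CPM in wildtype libraries. It fell by 0.38 on the log2 scale (edgeR adjusted p = 6.6e-05, SE 0.043), without overlap. *nxf-2*, a relative of the mRNA export receptor gene *nxf-1*, fell by 0.29 (edgeR adjusted p = 0.00027). The RNA helicase gene *hel-1* and the THO complex genes *thoc-5* and *thoc-2*, which act in mRNA export, rose by 0.20, 0.26 and 0.10, and the export adaptor gene *aly-3* rose by 0.10 (edgeR adjusted p = 0.0031, 0.00039, 0.0497 and 0.037). The call of *thoc-2* was lost in 9 of 13 alternatives and that of *aly-3* in 5, several of which left out 1 library, with ranges of 0.027 to 0.15 and 0.018 to 0.14. Among these 16 was *mel-28*, encoding the chromatin-binding nucleoporin ELYS, with 725 ± 24.3 CPM in *set-2* and 718 ± 13.3 CPM in wildtype (SD, n = 3 each).

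In the envelope list 16 of 18 genes were tested, with a median log2 fold change of -0.06. Of these 2 were higher and 6 were lower (50.0%), against 41.4% over all genes tested (20.3% higher and 21.1% lower). The higher genes were *unc-83*, encoding an outer membrane protein that moves nuclei, and *vrk-1*, encoding a kinase that acts on BAF-1. *unc-83* had 12.4, 13.4 and 13.5 CPM in *set-2* libraries and 7.52, 8.33 and 8.30 CPM in wildtype libraries, a rise of 0.70 (edgeR adjusted p = 0.00025, SE 0.098). *vrk-1* rose by 0.15 (edgeR adjusted p = 0.0077). *unc-84*, encoding the inner membrane partner of UNC-83, had 10.3, 14.7 and 13.2 CPM in *set-2* libraries and 20.9, 22.1 and 16.03 CPM in wildtype libraries, and fell by 0.63 (edgeR adjusted p = 0.0048, SE 0.14). *anc-1*, which encodes a very large outer membrane anchor, fell by 0.44 and *cnep-1*, encoding an envelope phosphatase, fell by 0.45 (edgeR adjusted p = 0.0021 and 0.00011). *nemp-1*, *samp-1* and *kdp-1*, which encode envelope membrane proteins, fell by 0.18, 0.16 and 0.15 (edgeR adjusted p = 0.0072, 0.032 and 0.024). The calls of *samp-1* and *kdp-1* were lost in 8 and 3 of 13 alternatives, which include single libraries left out, with ranges of 0.011 to 0.13 and 0.013 to 0.095. The SUN and KASH genes of meiotic chromosome pairing, *sun-1* and *zyg-12*, did not pass, and their libraries overlapped.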

How the data were processed

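Per the protocol the authors sequenced libraries depleted of ribosomal RNA, read as short single reads, from dissected young adult gonads, although the labels name the molecule polyA RNA. Per the paper and the submitters' processing notes, reads were mapped to WS254 with STAR 2.4.1d, reads with a mapping quality under 10 were removed with SAMtools 0.1.19, and the deposited raw counts per gene were made with HTSeq 0.7.2. Its strand setting is not given in the sources used here. A deposited table of gene numbers from the authors' comparison was not used.

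Gene names were matched for 43767 of 46772 identifiers, and positions, exon lengths and overlaps came from Ensembl's WBcel235 annotation (46549 identifiers). Counts were filtered with filterByExpr, scaled by TMM and fitted with glmQLFit and glmQLFTest in edgeR 4.0.16 under R 4.3.3, genotype being the only term. Intervals (95%) come from the coefficient without a prior count, and fold changes from edgeR's with one. TPM left out 22 ribosomal RNA genes.

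Alternatives were DESeq2 1.42.0, other scalings and filters, a replicate block, and leaving out each library. Every gene taken by the symbol rule was described, with each library's value where its adjusted p passed 0.05 or its result turned on single libraries, and list genes were named where they passed. For *mel-28*, *sun-1*, *zyg-12* and the neighbouring genes the choice was made with their values in view. The gene set and lists were chosen with earlier results of these data known. Precision is limited by 3 libraries per genotype.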

Additional observations from a re-analysis of the deposited data

How the results depend on the processing

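Of the 15 genes past the adjusted p, 9 passed in all 13 alternatives (4 higher, 5 lower) and 6 lost the call in at least 1. Leaving out 1 library at a time gave 4 to 9 genes higher and 5 to 8 lower, 0 higher and 2 to 3 lower past the fold limit, and 1421 to 1758 higher and 1566 to 1958 lower over all genes. For the 2 other lists it gave 4 to 6 higher and 6 to 8 lower. With no fold limit 8 genes were higher and 7 lower, and with a log2 limit of 1 these were 0 and 0. With the muscle and intestine level as a covariate, chosen after seeing the data, 2 genes were higher and 2 lower, 404 and 661 over all genes, and 1 gene of the lists was higher and 6 lower. Among the 41, 5 signs near 0 turned, all in genes that did not pass. These were *baf-1* (0.0069 with no low count filter, 0.072 with the covariate, and -0.058 to 0.028 without single libraries), *imb-3* (-0.0087 to 0.034), *npp-11* (-0.011 to 0.064), *npp-22* (-0.041 with the covariate, -0.0064 to 0.056) and *ran-4* (-0.0077 to 0.065) without single libraries. The cause was not tested. With the replicate number as a block, 7 genes were higher and 7 lower, *npp-19* being lost. No sign of pairing by number was seen, as the deviations of same-numbered libraries correlated at -0.086, -0.048 and -0.17 across genes. These are deviations from means of 3 libraries, so they cannot settle whether the samples were paired. At 13 to 39 counts per library, *npp-26* was limited by depth.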

Other observations

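Genes next to the 41 were looked at after their values were seen. The gene upstream of *emr-1* on the same strand, *egl-30*, which encodes a G protein alpha subunit and lies 480 bases away, also fell by 0.57 on the log2 scale in *set-2* gonads (edgeR adjusted p = 0.00071). The gene upstream of *ima-3*, *F32E10.9*, 526 bases away, fell by 1.18 (edgeR adjusted p = 1.4e-05). The gene downstream of *npp-1*, *K07F5.14*, 102 bases away, rose by 0.27 (edgeR adjusted p = 0.00029). These were 3 of the 9 neighbours on the same strand within 1000 bases that were tested beside one of the genes that passed. Of the others 1 passed in the opposite direction, *gldc-1* downstream of *ran-5* (log2 fold change -0.67, edgeR adjusted p = 0.035), and 5 did not pass. Beside genes that did not pass, 4 of 12 neighbours passed, such as *B0464.9* upstream of *baf-1* (log2 fold change 0.31, edgeR adjusted p = 0.00082). Over all genes tested 41.4% passed. *npp-15* and *ran-2* are neighbours at 480 bases, with log2 fold changes of 0.07 and -0.07, neither past the threshold.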
